A study of Mus musculus with 9 samples.

Results

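The tumour suppressor p53 and 33 genes listed as its targets were followed in irradiated mouse salivary glands. Whether p53 switches on each of them in the mouse was not tested. The list holds 34 genes of the 54532 gene identifiers in the count table. It was given by name, the symbols were matched to Ensembl identifiers, and all 34 genes were found and passed the filter on low counts, so none was left out of the tests. The list was chosen with earlier results of these data known. Its counts and medians beside those of all genes are therefore descriptions and no test of the list. The libraries came from submandibular glands of wild-type (WT) mice that had received 10 Gy of radiation and were sampled 30, 60 or 90 days later, with 3 libraries at each time point. RNA was extracted from 4 sections of a gland, each 50 µm thick. Every group is irradiated, so a level at 30 days is not a resting level, and the day after irradiation cannot be told apart from the age of the animals. No strain, age or sex is given in the labels, which do not say which part of the body was irradiated or that each library is a separate animal, so the p-values measure the spread between these samples.

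After DNA breaks, the kinase Atm and its relatives phosphorylate p53, which frees it from the ubiquitin ligase Mdm2 and lets it accumulate. The protein binds paired short DNA motifs near its target genes and raises their transcription. The targets halt the cell cycle, trigger apoptosis, repair DNA, adjust metabolism or, like Mdm2 itself, end the response. Because p53 is controlled mainly through protein stability, the RNA of its targets reports on its activity more directly than its own RNA does.

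Total counts ran from 16541396 to 17179500 in the 30-day libraries, from 21722141 to 24880803 at 60 days and from 20410818 to 26065856 at 90 days. CPM is the read count of a gene scaled to a common library size. A floor of 3 counts corresponds to 0.115 to 0.181 CPM when divided by library totals alone. With the scaling factors used for the other CPM values here, 3 counts gave 0.213 CPM in 30-day sample 1. The lowest of the 34 genes, Pmaip1, measured 0.452 CPM in its lowest library. Defining markers of the gland were abundant: the acinar water channel Aqp5 averaged 479, 346 and 323 CPM at 30, 60 and 90 days. Over the 6 acinar markers listed, the summed level was 456790 to 646838 CPM at 30 days and 310339 to 457561 CPM at 90 days, and 2 of them, Aqp5 and Lpo, passed the test as lower at 90 than at 30 days. Most of that sum was Mucl2 (mean 427725 CPM at 30 days and 318684 CPM at 90 days), which did not pass (edgeR adjusted p = 0.447). Bhlha15 averaged 365, 511 and 298 CPM at 30, 60 and 90 days and passed as lower at 90 than at 60 days (edgeR adjusted p = 0.00581). Of 4 granular duct markers, 3 passed as higher at 90 than at 30 days. In bulk tissue, fewer cells of a type and less RNA per cell cannot be told apart, and the part of these shifts in the results below was not tested.

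The p53 half-site is a run of 10 bases that reads alike on both strands, and a complete site holds 2 of them. Promoter windows from RefSeq (GRCm38.p6, the 250 bases before each annotated start) were found for 26 of the 34 genes. In 10 of the 26 genes (38.5%) a window held a perfect half-site, against 8.2% of all 27025 genes in the promoter table. The 4-letter run CATG, a common centre of strong p53 sites, was present in 38.5% of the 26 genes and 57.6% of all genes. A match of letters is a description and not evidence of binding, and many known p53 sites lie outside these windows. The windows of Cdkn1a (chr17:29090729-29090978, plus strand), Ccng1 (chr11:40755287-40755536, minus strand) and Mdm2 (chr10:117710759-117711008, minus strand) are shown because these genes represent arrest, a fall over the whole interval, and feedback. Capitals mark the perfect half-sites only.
Cdkn1a: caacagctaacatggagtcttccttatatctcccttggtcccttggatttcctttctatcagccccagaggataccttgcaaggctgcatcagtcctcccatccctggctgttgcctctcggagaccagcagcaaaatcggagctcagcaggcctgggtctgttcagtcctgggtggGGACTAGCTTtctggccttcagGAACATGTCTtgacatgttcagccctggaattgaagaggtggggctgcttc
Ccng1: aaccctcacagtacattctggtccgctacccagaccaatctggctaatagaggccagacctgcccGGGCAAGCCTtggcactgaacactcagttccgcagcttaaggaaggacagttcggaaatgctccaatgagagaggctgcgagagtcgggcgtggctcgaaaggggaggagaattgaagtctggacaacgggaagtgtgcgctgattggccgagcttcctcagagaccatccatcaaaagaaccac
Mdm2: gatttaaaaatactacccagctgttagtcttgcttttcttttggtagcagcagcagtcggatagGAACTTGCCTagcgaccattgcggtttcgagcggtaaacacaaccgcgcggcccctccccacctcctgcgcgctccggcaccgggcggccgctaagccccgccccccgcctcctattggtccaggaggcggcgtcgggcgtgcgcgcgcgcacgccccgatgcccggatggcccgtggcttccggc

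Cdkn1a was the only one of the 26 genes with 2 perfect half-sites within 13 bases of each other, GGACTAGCTT and GAACATGTCT, an arrangement found in 0.0666% of all genes. The 10 bases directly after GAACATGTCT differ from the half-site pattern only at their first base, so they were not marked. Which of these runs pair as a site was not tested. The window shown is that of the upstream start of Cdkn1a, and the window of its second start held none. In Aen the half-site read GGGCTTGTCC and in Gadd45a GGGCTAGCCC, so a half-site was present both in a gene that fell with time and in the gene that rose. Eda2r, Sesn2, Phlda3 and Epha2, which also fell, had no perfect half-site in these windows.

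Levels of the 34 genes differed widely. Per kilobase of exon, averaged over the 9 libraries, Perp (82.6 CPM per kb) and Ccng1 (55.6 CPM per kb) stood highest, followed by Phlda3 (19.3), Ei24 (17.6) and Bax (11.01). Perp is a membrane protein of desmosomes in epithelia as well as a p53 target. Trp53 itself measured 4.004 CPM per kb. The lowest were Apaf1 (0.581), Pidd1 (0.494) and Pmaip1 (0.319 CPM per kb).

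Between 30 and 90 days, 6 of the 34 genes fell and 1 rose (edgeR quasi-likelihood test, adjusted p under 0.05 over all 15224 genes tested, where 1.77% of all genes were called lower, 1.81% higher and 3.57% in either direction). The genes that fell were Ccng1, Aen, Eda2r, Sesn2, Phlda3 and Epha2, by 0.47 to 0.78 on the log2 scale. Gadd45a rose. With trimmed mean of M-values (TMM) scaling, the median log2 change was -0.19 over the 34 genes, against 0.01 over all genes tested, and 24 of the 34 had a negative change (47.9% of all genes did). The 10 most abundant genes of a library held 60.0% to 66.5% of its counts at 30 days, 54.7% to 61.7% at 60 days and 51.3% to 59.1% at 90 days. Library totals thus rest largely on few genes whose share was lower at 90 days, and the part of this in the results was not tested. When libraries were scaled by their total alone, the median of all genes moved to 0.24 and that of the 34 genes to 0.03, with 16 of 34 negative. The distance between both medians was -0.20 with TMM and -0.21 with library totals. A change of scaling moves all genes by about the same amount, so this distance cannot decide between scalings. Relative to the median of all genes the list was lower at 90 days, while the sign of its own median depended on the scaling. Under library totals 0 of the 6 falls passed the test and only the rise of Gadd45a did, although all 6 kept their sign. With TMM scaling, the 3 values at 90 days all lay under those at 30 days in 13 genes (11.8% of all genes). They all lay above in 3 genes, Fas, Gadd45a and Pmaip1 (11.4% of all genes).

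**Figure D1:**
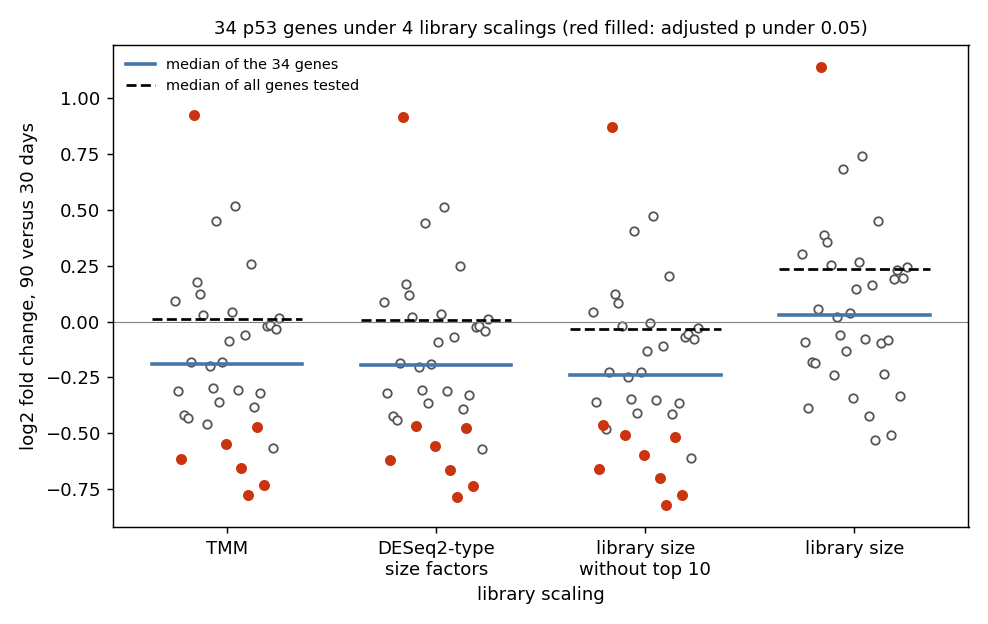
Log2 fold change from 30 to 90 days (vertical axis) of each of the 34 genes under 4 library scalings (horizontal axis). Solid lines are the median of the 34 genes, dashed lines the median of all genes tested, and red points passed the test. Because a change of scaling moves all genes about alike, the solid line lies about the same distance under the dashed line in each column. Both move up from -0.19 and 0.01 with TMM to 0.03 and 0.24 with library totals, where the only red point is Gadd45a.

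Between 30 and 60 days, 2 of the 34 genes fell and 0 rose (0.427% of all genes were called lower, 1.14% higher and 1.56% in either direction). Cdkn1a and Epha2 were the genes that fell. The median was -0.15 against -0.00 over all genes, and 28 of 34 had a negative change, where 50.4% of all genes did. With library totals alone 24 of 34 were negative and 0 passed the test. With TMM scaling, every value at 60 days lay under every value at 30 days in 9 genes (8.22% of all genes did so), and above in 0 genes (8.65%).

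From 60 to 90 days 0 of the 34 genes passed the edgeR test, where 0.256% of all genes did. DESeq2 and limma-voom also called 0, and 8 genes had an unadjusted edgeR p under 0.05, 4 in each direction (10.8% of all genes had one). The median of the 34 genes was 0.02, and 15 were negative and 19 positive with TMM scaling, where 49.9% of all genes were negative (6 and 28 with library totals, where the median of all genes was 0.17). With TMM scaling, all 90-day values lay under all 60-day values in Ccng1, Eda2r, Mdm2, Trp53inp1 and Zmat3, 5 of the 34 (7.64% of all genes). They all lay above in Btg2, Pmaip1 and Psrc1, 3 of the 34 (8.3% of all genes). The step from 30 to 60 days and the step from 60 to 90 days were compared directly by setting 60 days against the average of the earlier and later days. No gene of the 34 passed (0 with edgeR and limma-voom, 2 with DESeq2, which were Cdkn1a and Epha2, and 4 at an unadjusted edgeR p under 0.05). Of all genes, 0.256% were called and 9.45% had an unadjusted p under 0.05. In the test of any difference among the 3 days, 6 of the 34 genes passed (3.29% of all genes): Aen, Ccng1, Eda2r, Epha2, Gadd45a and Sesn2. Without 30-day sample 1, 2 or 3, 60-day sample 2 or 90-day sample 3 that count was 3, 3, 2, 3 and 2. The comparisons with 30 days share the 30-day libraries, and those with 60 days share the 60-day libraries.

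**Figure D2:**
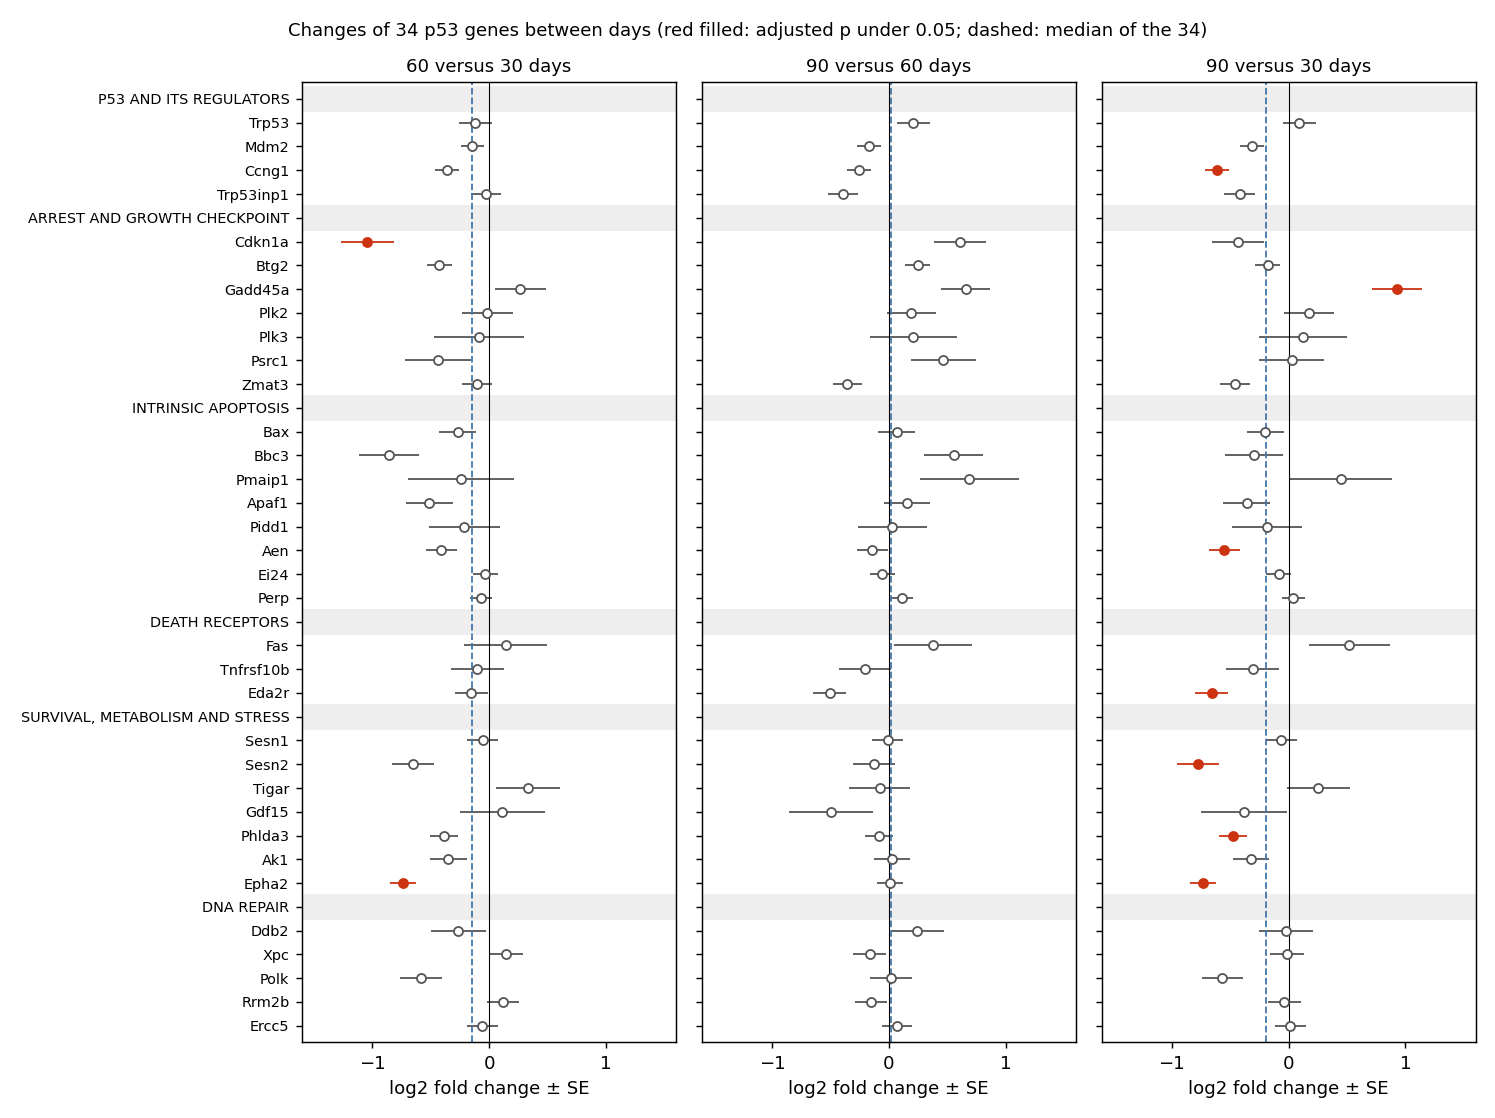
Log2 fold change with its standard error (horizontal axis) of each gene, ordered by role (vertical axis), for 60 against 30, 90 against 60 and 90 against 30 days. Red filled points passed the test and dashed lines mark the median of the 34 genes. Red points are Cdkn1a and Epha2 on the left, none in the middle, and on the right 6 falls and the rise of Gadd45a.

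The fall with day was not shared by the whole list. Mean levels went down at each step in 11 genes (Aen, Ccng1, Eda2r, Ei24, Mdm2, Phlda3, Sesn1, Sesn2, Tnfrsf10b, Trp53inp1 and Zmat3), a pattern held by 19.2% of all genes tested. They were lowest at 60 days in 17 genes, Cdkn1a, Btg2, Bbc3 and Epha2 among them (31.1% of all genes), and highest at 60 days in 4, Gdf15, Rrm2b, Tigar and Xpc (30.6%). They went up at each step in 2, Fas and Gadd45a (19.1%). These counts order means with TMM scaling and carry no test. Small differences count in full, as for Epha2 with 21.3 CPM at 60 days and 21.4 CPM at 90 days. As a summary by library, the median deviation of the 34 genes from their own 9-library means was 0.13, 0.10 and 0.20 on the log2 scale in 30-day samples 1, 2 and 3. It was -0.05, -0.09 and -0.09 at 60 days and -0.06, 0.01 and -0.13 at 90 days. With TMM scaling, on which these deviations rest, the 30-day libraries were all above the rest. The 60-day and 90-day libraries overlapped, with 90-day sample 2 the highest of those 6. The TMM factors ran from 0.824 (30-day sample 1) to 1.186 (90-day sample 2). The deviations were not computed with library totals.

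**Figure D3:**
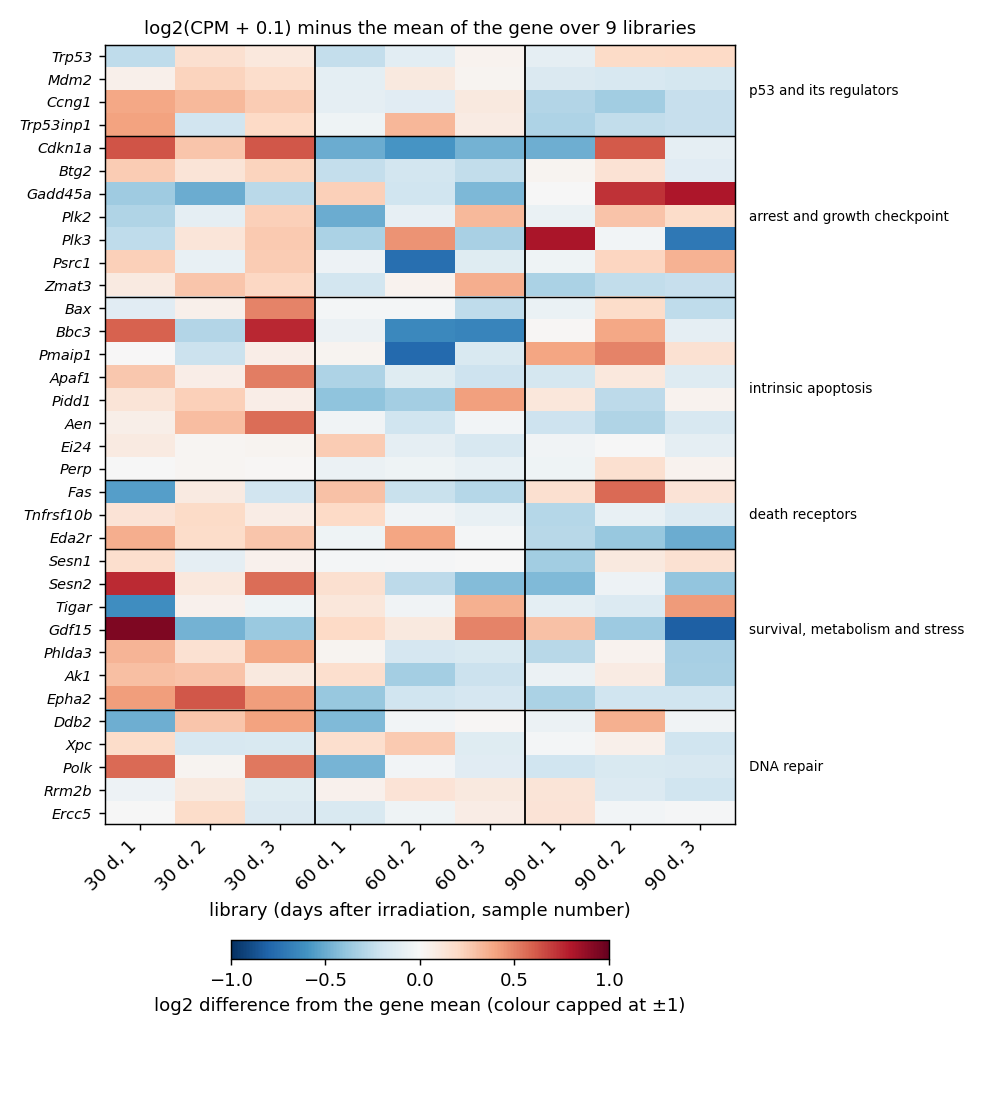
Each row is a gene, each column a library, and colour is log2(CPM + 0.1) minus the mean of that gene over the 9 libraries (red above, blue below, capped at 1). The 30-day columns are red for Ccng1, Sesn2, Phlda3 and Epha2, the 60-day columns blue for Cdkn1a, and the 90-day columns of samples 2 and 3 red for Gadd45a.

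Among p53 and its regulators, 1 of 4 genes passed between 30 and 90 days, where 3.57% of all genes did. Ccng1 encodes cyclin G1, a direct p53 target that recruits a phosphatase to Mdm2 (ENSMUSG00000020326, chromosome 11, 40748552 to 40755311, minus strand in GRCm38). It measured 251, 241 and 230 CPM in 30-day samples 1, 2 and 3, then 181, 178 and 205 CPM at 60 days and 157, 151 and 164 CPM at 90 days. With TMM scaling, no value of one time point overlapped those of another. Relative to library totals the separation was not complete. There, 60-day sample 3 held 4925 of 21722141 counts and 30-day sample 1 held 3548 of 17125557. From 30 to 90 days it fell by 0.61 as a log2 change (standard error 0.10; edgeR adjusted p = 0.00200). Its fitted level fell by 34.65%. The step to 60 days was -0.36 ± 0.10 (SE; adjusted p = 0.104) and that from 60 to 90 days -0.26 ± 0.10 (adjusted p = 0.366). With library totals the change to 90 days was -0.39 (adjusted p = 0.164).

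Trp53, the gene of p53 itself, did not pass in any comparison. It stood at 13.5, 18.0 and 17.3 CPM at 30 days, 13.6, 14.9 and 16.4 CPM at 60 days and 15.1, 18.4 and 18.5 CPM at 90 days. The groups overlapped throughout, and over the whole interval the change was 0.09 ± 0.14 (SE; adjusted p = 0.817, 95% interval -0.20 to 0.39). Mdm2, which closes the feedback loop by marking p53 for destruction, measured 34.9, 39.3 and 38.0 CPM, then 31.4, 36.04 and 34.3 CPM, then 30.4, 30.1 and 29.8 CPM. Its 90-day values lay under all others, but the change of -0.31 ± 0.10 did not pass (adjusted p = 0.102). Trp53inp1, a p53-induced stress protein with a role in autophagy, had a change of -0.42 ± 0.13 (adjusted p = 0.0911) and 90-day values of 54.0, 56.3 and 57.1 CPM, all under the lowest earlier value of 58.7 CPM.

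Of the 7 arrest genes, Cdkn1a fell between 30 and 60 days (1.56% of all genes were called in either direction) and Gadd45a rose between 30 and 90 days (3.57%). Cdkn1a encodes p21, the cyclin-dependent kinase inhibitor through which p53 stops cells before S phase (ENSMUSG00000023067, chromosome 17, 29090976 to 29100727, plus strand). Its values were 25.1, 19.7 and 24.98 CPM at 30 days and 11.48, 10.7 and 11.7 CPM at 60 days, so the groups were well apart. At 90 days they were 11.6, 24.8 and 15.2 CPM, which reaches from the 60-day values up to the 30-day values. Cdkn1a fell by 1.04 on the log2 scale from 30 to 60 days (SE 0.23, adjusted p = 0.0412). Over the whole interval the change was -0.43 ± 0.22 (SE; adjusted p = 0.355), with a 95% interval of -0.91 to 0.05. Its call at 60 days was lost in 10 of 19 alternatives, among them library totals, limma-voom and leaving out any 30-day or 60-day library or 90-day sample 3, with adjusted p from 1.60e-09 to 0.218. Without 90-day sample 2, Cdkn1a also passed as lower at 90 than at 30 days. That library also had the highest summed level of 7 immune markers, 175 CPM against 81.0 and 102 CPM in the others of its group, and of 4 globin genes, 223 CPM against 71.4 and 102 CPM. The part of these markers in the Cdkn1a value was not tested.

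Gadd45a, a stress sensor that binds the proliferating cell nuclear antigen and slows entry into mitosis, went against the list (ENSMUSG00000036390, chromosome 6, 67035096 to 67037457, minus strand). It measured 7.51, 6.84 and 7.99 CPM at 30 days, 11.4, 8.41 and 7.05 CPM at 60 days and 9.61, 16.0 and 17.0 CPM at 90 days. All 90-day values lay above the 30-day values, and samples 2 and 3 lay above every other library. Over the whole interval the change was 0.93 ± 0.22 (SE; adjusted p = 0.0225), a rise of 90.0%. It passed with library totals too (log2 change 1.14), but not with limma-voom or without 30-day sample 1, 30-day sample 2, 90-day sample 2 or 90-day sample 3. A non-coding transcript on the opposite strand shares 19.1% of its exon length and held 7 to 28 counts per library, against 106 to 466 for Gadd45a. The use of strand in the counting is not given in the sources used here.

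Btg2, an antiproliferative gene that promotes mRNA deadenylation, was also lowest at 60 days. It measured 35.4, 32.4 and 34.6 CPM, then 25.1, 26.09 and 25.03 CPM, then 30.3, 32.7 and 27.4 CPM. The 60-day values lay under all others, and the change to 60 days of -0.43 ± 0.11 just missed the threshold in edgeR (adjusted p = 0.05004). It passed in 3 of 19 alternatives, which were DESeq2, library size without the 10 most abundant genes, and a filter of at least 10 counts in every library. Zmat3, an RNA-binding splicing regulator, also missed it in edgeR from 30 to 90 days (-0.46 ± 0.13, adjusted p = 0.0510), with 23.2 to 24.6 CPM at 90 days against 30.8 to 35.0 CPM at 30 days. Zmat3 passed in 8 of 19 alternatives, DESeq2 and the replicate block among them. The kinases Plk2 and Plk3 and the spindle protein gene Psrc1 had changes from 0.03 to 0.18 over the whole interval, with adjusted p from 0.761 to 0.975.

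**Figure D4:**
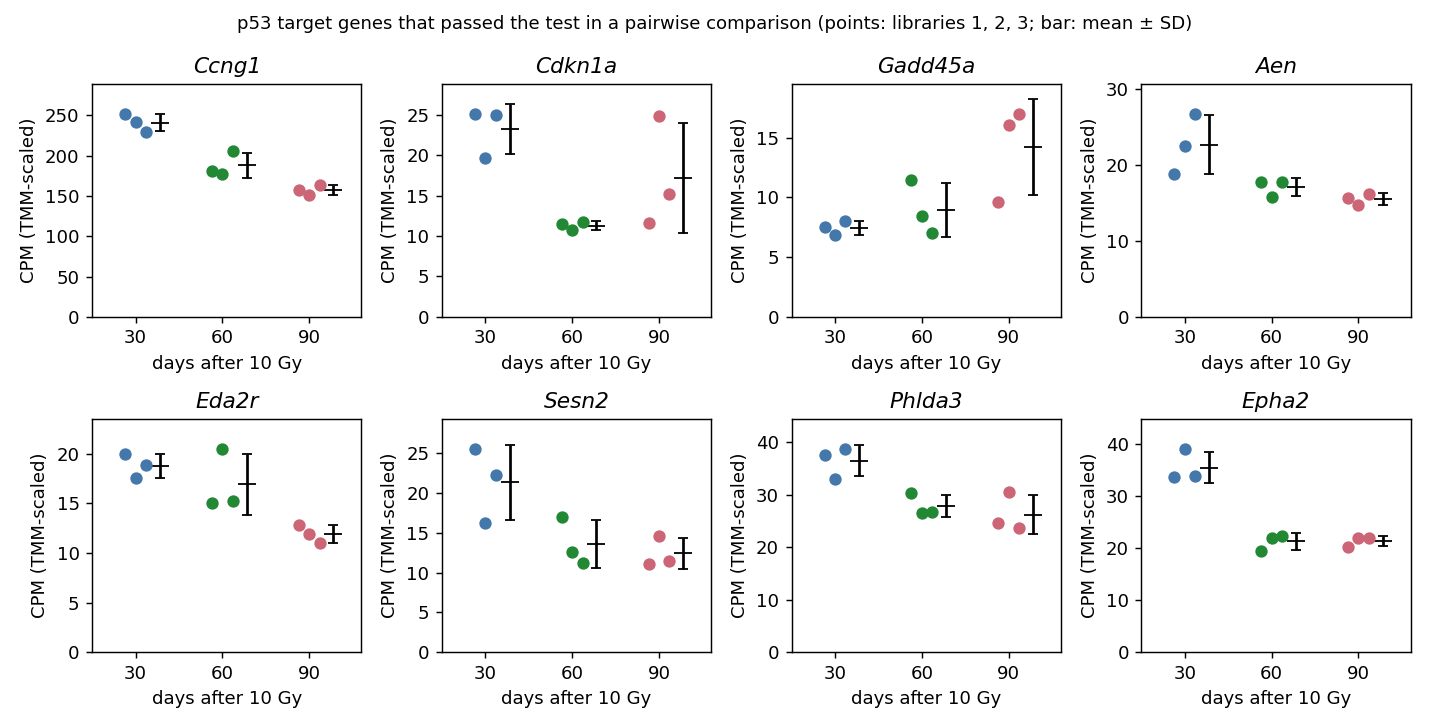
CPM (vertical axis, from 0) by day after irradiation (horizontal axis) for the 8 genes that passed the test in a comparison of 2 time points. Points are libraries 1, 2 and 3 from left to right and the bar beside them the mean ± SD. Ccng1 steps down from a mean of 241 to 157 CPM, Epha2 is down by 60 days at 21.3 CPM and stays at 21.4, Cdkn1a spreads widely at 90 days, and Gadd45a goes up.

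Of the 8 genes of intrinsic apoptosis, 1 passed between 30 and 90 days (3.57% of all genes did), and this was Aen. It encodes a nuclease that p53 induces and that digests DNA in dying cells (ENSMUSG00000030609, chromosome 7, 78895854 to 78911209, plus strand). Its values were 18.9, 22.5 and 26.7 CPM at 30 days, 17.7, 15.8 and 17.8 CPM at 60 days and 15.7, 14.7 and 16.2 CPM at 90 days. All later values lay under the 30-day ones. It fell by 0.55 on the log2 scale by 90 days (SE 0.13, adjusted p = 0.0259), a call lost in 6 of 19 alternatives, with adjusted p from 0.00548 to 0.334. They were library totals and leaving out 30-day sample 2 or 3 or any 90-day library.

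The Bcl-2 family members Bax, Bbc3 and Pmaip1 did not pass with edgeR at the settings used here. Bax, the pore former of the mitochondrial outer membrane, measured 15.8, 17.8 and 24.2 CPM at 30 days, 16.9, 16.9 and 14.4 CPM at 60 days and 16.4, 19.5 and 14.4 CPM at 90 days. The groups overlapped at every step (30 to 90 days: -0.20 ± 0.16, adjusted p = 0.583, 95% interval -0.53 to 0.13). Bbc3, which encodes the activator Puma, had 9.36, 5.05 and 10.5 CPM at 30 days and 5.96, 3.93 and 3.88 CPM at 60 days, which overlap (-0.85 ± 0.26, adjusted p = 0.133). Bbc3 passed in that comparison without a filter on low counts and without 30-day sample 2, and also without a filter for 60 days set against the average of the other days. Pmaip1, which encodes Noxa, was at 0.954 to 1.24 CPM at 90 days and 0.713 to 0.888 CPM at 30 days, a change of 0.45 ± 0.43 (adjusted p = 0.677) at a level where counts are few. Apaf1, the scaffold of the apoptosome, had -0.51 ± 0.20 at 60 days (adjusted p = 0.279) and -0.36 ± 0.20 at 90 days (adjusted p = 0.385). Perp and Ei24 had narrow intervals around 0 from 30 to 90 days, -0.16 to 0.25 and -0.31 to 0.14. Pidd1, the scaffold of a caspase-activating complex, was at 2.31 to 2.62 CPM at 30 days and 1.82 to 2.39 CPM at 90 days (adjusted p = 0.836).

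Of the 3 death receptor genes, 1 passed between 30 and 90 days (3.57% of all genes did). Eda2r, an X-linked receptor of the tumour necrosis factor family for ectodysplasin A2, fell (ENSMUSG00000034457, chromosome X, 97333840 to 97377216, minus strand). It measured 19.99, 17.6 and 18.8 CPM at 30 days, 15.1, 20.4 and 15.3 CPM at 60 days and 12.8, 11.9 and 10.99 CPM at 90 days. The 90-day values lay under all others, whereas those of 30 and 60 days overlapped. Over the whole interval the log2 change was -0.66 ± 0.14 (SE; adjusted p = 0.0123). The change to 60 days was -0.15 ± 0.14, which did not pass (adjusted p = 0.719). The call was lost with library totals (adjusted p = 0.217) and without 30-day sample 1, 90-day sample 2 or 90-day sample 3. Fas, the receptor of Fas ligand, was at 0.992 to 1.605 CPM at 30 days and 1.66 to 2.27 CPM at 90 days, a change of 0.52 ± 0.35 that did not pass (adjusted p = 0.495). Tnfrsf10b, the mouse TRAIL receptor, had -0.31 ± 0.23 (adjusted p = 0.548).

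Of the 7 survival, metabolism and stress genes, 3 fell between 30 and 90 days (1.77% of all genes were called lower). Differences between the subgroups were not tested. Epha2, an ephrin receptor tyrosine kinase of epithelia, fell early (ENSMUSG00000006445, chromosome 4, 141301240 to 141329384, plus strand). It measured 33.7, 39.0 and 33.8 CPM at 30 days, 19.4, 22.02 and 22.4 CPM at 60 days and 20.3, 21.96 and 21.99 CPM at 90 days. The 30-day values stood far above the rest, and the later groups overlapped. It fell by 0.74 to 60 days (SE 0.11, adjusted p = 0.00166) and by 0.73 to 90 days (SE 0.11, adjusted p = 0.00102). The later step was 0.01 ± 0.11 (adjusted p = 0.991). Both calls held in 18 of 19 alternatives and were lost with library totals (adjusted p = 0.0617 and 0.114).

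Sesn2, a sestrin that restrains mTORC1 signalling under stress, had 25.4, 16.2 and 22.3 CPM at 30 days, 16.9, 12.6 and 11.2 CPM at 60 days and 11.1, 14.6 and 11.495 CPM at 90 days. All 90-day values were under the 30-day ones. It fell by 0.78 as a log2 change (standard error 0.18; adjusted p = 0.0225), the largest fall of the 34 genes over the whole interval. The change to 60 days was -0.65 ± 0.18, which did not pass (adjusted p = 0.103), and the 30-day and 60-day values overlapped. The call was lost with library totals (adjusted p = 0.148) and without 30-day sample 1, 30-day sample 3, 90-day sample 1 or 90-day sample 3. Sesn1, its relative, stayed at 20.03 to 23.96 CPM at 30 days and 16.8 to 23.7 CPM at 90 days (-0.06 ± 0.13, adjusted p = 0.881). The difference between the sestrins was not tested.

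Phlda3, a pleckstrin-homology protein that competes with Akt for membrane lipids, measured 37.6, 33.0 and 38.6 CPM, then 30.3, 26.4 and 26.8 CPM, then 24.6, 30.4 and 23.6 CPM. The 30-day values lay above all later ones. It fell by 0.47 by 90 days (SE 0.12, adjusted p = 0.0325), a call lost in 6 of 19 alternatives, with adjusted p from 0.00874 to 0.459. They were library totals and leaving out 30-day sample 1 or 3, 60-day sample 2, or 90-day sample 1 or 3. Tigar, which lowers glycolytic flux, had 0.26 ± 0.27 (adjusted p = 0.712). Gdf15, a secreted stress cytokine, had 6.31 CPM in 30-day sample 1 and 1.81 to 4.63 CPM in the other 8 libraries (-0.38 ± 0.37, adjusted p = 0.679). The adenylate kinase Ak1 had -0.32 ± 0.16 (adjusted p = 0.312).

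Of the 5 repair genes 0 passed in any comparison by edgeR at the main settings, where 3.57% of all genes were called from 30 to 90 days. Among the edgeR alternatives, Polk passed from 30 to 90 days without 30-day sample 2. It also passed in the test of any difference among days without a filter on low counts. Polk had an unadjusted edgeR p under 0.05 in 2 of the 3 pairwise comparisons, and DESeq2 called it in the test of any difference among days, while limma-voom called 0 of the 5. Polk, a polymerase that copies past damaged bases, had 12.4, 8.50 and 12.1 CPM at 30 days, all above the later range of 6.04 to 8.19 CPM (-0.57 ± 0.18 at 90 days, adjusted p = 0.0880). The damage sensors of nucleotide excision repair had changes from 30 to 90 days of -0.01 (Xpc, 95% interval -0.31 to 0.29) and -0.02 (Ddb2, -0.50 to 0.47). The incision nuclease gene Ercc5 had 0.02 (-0.26 to 0.29) and Rrm2b, a subunit of ribonucleotide reductase, -0.03 (-0.32 to 0.25). Their adjusted p-values ran from 0.935 to 0.979, and the interval of Ddb2 is wide enough to hold a change as large as that of Phlda3. Ddb2 shares 23.8% of its exon length with Acp2 on the opposite strand, so its level is uncertain.

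A further 3 lists of the pathway were read in the same fit, with 58 of their 63 genes tested. From 30 to 90 days 1 of these fell and 3 rose, where 1.77% of all genes tested were called lower and 1.81% higher, so the single fall is near the share over all genes. Among 21 tested regulators and partners of p53, Atm, the kinase that signals double-strand breaks to p53, fell by 0.64 as a log2 change (standard error 0.14; adjusted p = 0.0132). Its mean was 22.4 ± 1.65 CPM (SD, n = 3) at 30 days and 14.3 ± 2.62 CPM (SD, n = 3) at 90 days, and with library totals the change was -0.41 (adjusted p = 0.249). Trp63, the p53 relative of basal epithelial cells, rose by 0.92 ± 0.21 (SE; adjusted p = 0.0289). Its mean was 11.4 ± 2.38 CPM (SD, n = 3) at 30 days and 21.6 ± 5.70 CPM (SD, n = 3) at 90 days. Hipk2, a kinase that phosphorylates p53, differed among days (adjusted p = 0.0295) and stood at 20.4, 29.4 and 16.6 CPM on average at 30, 60 and 90 days. The median of the 21 was -0.06.

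Among 25 tested further p53 targets, 2 rose between 30 and 90 days (1.81% of all genes were called higher), and the median was 0.01. With 1.77% of all genes called lower, a count of 0 falls in a list of this size says little. Thbs1, a matrix protein that restrains vessel growth, rose by 1.43 ± 0.26 (adjusted p = 0.0203) and Sfn, an epithelial 14-3-3 protein, by 0.92 ± 0.21 (adjusted p = 0.0170). The summed level of 5 basal and myoepithelial markers was 294 to 409 CPM at 30 days, 438 to 465 CPM at 60 days and 403 to 564 CPM at 90 days, and 0 of the 5 passed the test. Their part in the rise of Trp63 and Sfn was not tested. Without 30-day sample 1 the number of calls over the 3 lists was 0, and without 90-day sample 2 or 90-day sample 3 it was 1.

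Cell cycle genes that p21 is known to lower were read beside Cdkn1a. All 12 were tested, and 0 passed in any comparison with edgeR, DESeq2 or limma-voom, nor had any an unadjusted p under 0.05 with edgeR. By edgeR, 1.56%, 0.256% and 3.57% of all genes were called from 30 to 60, 60 to 90 and 30 to 90 days. A count of 0 calls in a list of 12 therefore says little. The median log2 change of the 12 was 0.48 from 30 to 60 days, with 9 positive and 3 negative (50.4% of all genes were negative). From 60 to 90 days it was -0.36, with 11 of 12 negative (49.9% of all genes). From 30 to 90 days it was 0.09, with 5 of 12 negative (47.9% of all genes). A relation of these genes to Cdkn1a was not tested.

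The number of calls depended on single libraries. From 30 to 90 days, the 7 calls became 3 without 30-day sample 1, 4 without 30-day sample 3, 4 without 90-day sample 1 and 2 without 90-day sample 3. From 30 to 60 days, the 2 calls became 1 without 30-day sample 1, 30-day sample 3, 60-day sample 2, 60-day sample 3 or 90-day sample 3. Ccng1 and Epha2 kept their calls from 30 to 90 days without any single library.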

How the data were processed

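RNA was made into libraries with a SMARTER mRNA-seq kit, per the labels' protocols. Per the submitters' processing notes, fastp, STAR, featureCounts and the mm10 build were used, with versions and strand settings not given in the sources used here. The deposited table holds raw read counts per Ensembl gene; 3 of its columns matched no sample and were not used. All 9 libraries were fitted together in edgeR 4.0.16 (R 4.3.3) with TMM factors, the default low-count filter (minimum count 10, 15224 genes kept) and robust quasi-likelihood tests. P-values were adjusted by Benjamini-Hochberg over all genes, with a threshold of 0.05. CPM values are TMM-scaled, and statements on overlapping groups and on the order of means use this scale unless library totals are named. SEs derive from the F statistic, and 95% intervals use its degrees of freedom. Floors cover counting error only. The members and lists were chosen with earlier results of these data known. By rule, full values are given for members that passed any test, for Trp53, Cdkn1a, Ccng1, Eda2r, Mdm2, Bax and Phlda3 in any case, and for the member with the smallest p in a subgroup without these (Polk); pathway genes are named where they passed. Btg2 and Bbc3 were added after their values were seen. DESeq2 1.42.0, limma 3.58.1, other scalings and filters, left-out libraries and a replicate block were alternatives. On data simulated for 90 against 30 days over 15224 genes, 33% of genes changed by 0.6 and 61% of those changed by 1 (log2) were recovered. Of the calls in that simulation 6.93% were false, above the threshold of 0.05.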

Additional observations from a re-analysis of the deposited data

How the results depend on the processing

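Across the alternatives tried, no called gene changed direction. The number of the 34 genes called between 30 and 60 days was 2, against 0 with library totals, 5 without the 10 most abundant genes in the library size, 5 with DESeq2, 1 with limma-voom, 4 without a filter and 1 with all libraries drawn down to the smallest total, an alternative chosen after seeing the data. Its median was -0.23 without the 10 most abundant genes. From 60 to 90 days, 4 genes were called without a filter, and the median was 0.19 with library totals. From 30 to 90 days, library totals gave 1 call and a median of 0.0301. For 60 days against the mean of 30 and 90 days, DESeq2 and the fit without a filter each called 2. For any difference among days the count was 6, against 1 with library totals, 10 with DESeq2, 3 with limma-voom and 12 without a filter. The cause was not tested. The shares of all genes called that are given above hold for the main edgeR settings only. Those under the alternatives are not given here, so the counts under an alternative cannot be set against a share of all genes.

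Leaving out 1 library at a time gave 1 to 3 calls and medians of -0.22 to -0.11 from 30 to 60 days, 0 calls and medians of -0.01 to 0.03 from 60 to 90 days, and 2 to 8 calls and medians of -0.28 to -0.14 from 30 to 90 days. It gave 0 to 1 calls for 60 days against the mean of the others, 2 to 8 for any difference among days, and 0 to 4 over the further pathway lists. With the sample number as a replicate block, the counts were 2, 0 and 8 for the 3 pairwise comparisons, 0 for the contrast of steps and 5 for any difference. The sample numbers showed no clear pairing: deviations of same-numbered samples correlated at -0.06 to 0.19, and those of other pairs at -0.21 to 0.19. A sample correlated best with its own number in 8 of 18 cases. With 3 libraries at each time point, these values cannot exclude a pairing. The widest 95% intervals from 30 to 90 days were those of Pmaip1, Plk3, Gdf15, Fas and Pidd1, all at low counts.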
